A study of Mus musculus with 8 samples.

Results

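The Groucho family of TLE corepressors and 3 of its partners in the Notch pathway were followed in mouse hematopoietic stem cells (HSCs) with and without Mitol, the gene of a ubiquitin ligase in the outer membrane of mitochondria. The 9 genes were Tle1, Tle2, Tle3, Tle4, Tle5, Tle6, Hes1, Notch2 and Rbpj, out of 22065 named genes in the deposited count table. Tle2 was chosen by its lower counts in Mitol KO HSCs in this same comparison, so its values are given as a description with no test. The other 8 genes were added as paralogs of Tle2 or as Notch effectors. All 9 passed the filter on low counts.

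The data are bulk RNA-seq of 8 libraries, 4 labelled Mitol KO and 4 labelled Control, each made from 100 cells sorted from bone marrow of C57BL/6 mice aged 8 to 10 weeks. The sort kept cells that were CD150+, CD48-, EPCR+ and negative for lineage markers. The study's general definition of long-term HSCs also asks for c-Kit, the product of Kit, and whether the sort for these libraries did is not given in the sources used here. Per the study's methods, Mitol KO mice carried floxed Mitol alleles and MX1-cre, Control mice carried the floxed alleles without cre, and both received Poly:IC, with cells taken 1 week later. Both groups therefore share the floxed alleles and the Poly:IC exposure. MX1-cre is switched on by interferon and acts in many cell types besides HSCs, so deletion was not limited to the sorted cells. The labels do not say whether the 4 libraries of a group came from separate mice, so p-values measure the spread between these libraries, which may be technical. In bulk RNA, fewer cells that express a gene and less RNA per cell cannot be told apart.

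TLE proteins do not bind DNA. They are brought to genes by sequence-specific factors such as HES, RUNX and TCF proteins, and there recruit histone deacetylases to keep transcription low. Tle1 to Tle4 encode full-length corepressors, Tle5 encodes a short form that lacks the WD repeat domain and can act against the others, and Tle6 encodes a divergent member best known from the egg and early embryo. In Notch signalling a ligand on one cell releases the intracellular part of a Notch receptor on its neighbour, which joins the DNA-binding protein RBPJ and switches on targets such as Hes1, whose product in turn recruits TLE proteins.

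The start regions of Tle2, the gene chosen, and of Tle6, its neighbour that also fell, are shown because HES and RBPJ proteins bind known short motifs. RefSeq promoter windows on GRCm38.p6, from 250 bases before to 50 bases after a start, were matched by symbol for 7 of the 9 genes, in 10 windows. None was matched for Tle5 and Hes1. Capitals mark TGGGAA (the core of RBPJ sites), CACGTG (an E-box) and CACNAG (the N-box of HES proteins, with N any base), found on either strand, and no 2 of these overlap in the windows shown. Windows lie at chr10:81575037-81575336 on the plus strand for Tle2, and at chr10:81600851-81601150 and chr10:81597318-81597617 on the minus strand for the windows 1 and 2 of Tle6. Each is written 5′ to 3′ along the gene.
Tle2: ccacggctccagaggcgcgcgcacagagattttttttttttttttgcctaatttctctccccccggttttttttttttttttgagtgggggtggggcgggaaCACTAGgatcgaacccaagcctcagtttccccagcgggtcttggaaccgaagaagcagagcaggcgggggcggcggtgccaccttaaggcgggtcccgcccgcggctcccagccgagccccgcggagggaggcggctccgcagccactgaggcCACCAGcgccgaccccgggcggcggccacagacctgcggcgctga
Tle6 window 1: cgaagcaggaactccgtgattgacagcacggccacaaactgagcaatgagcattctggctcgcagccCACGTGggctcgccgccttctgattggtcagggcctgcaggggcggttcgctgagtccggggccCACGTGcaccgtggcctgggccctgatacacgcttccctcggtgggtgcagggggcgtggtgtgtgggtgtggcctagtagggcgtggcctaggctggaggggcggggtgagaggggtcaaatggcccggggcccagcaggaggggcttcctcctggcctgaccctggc
Tle6 window 2: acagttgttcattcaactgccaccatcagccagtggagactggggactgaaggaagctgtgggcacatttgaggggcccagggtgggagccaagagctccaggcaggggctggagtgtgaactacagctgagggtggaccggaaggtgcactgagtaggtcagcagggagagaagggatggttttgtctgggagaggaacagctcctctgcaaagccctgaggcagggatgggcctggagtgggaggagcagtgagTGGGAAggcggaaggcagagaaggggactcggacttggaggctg
The Tle2 window held 2 CACNAG matches, 148 bases before and 5 bases after the start, and neither of the other motifs. Window 1 of Tle6 held 2 CACGTG matches and window 2 held 1 TGGGAA match. Over all 32851 RefSeq windows of this length, CACNAG was in 42.5%, TGGGAA in 25.6% and CACGTG in 7.2%. Rbpj had 2 distinct TGGGAA matches over its overlapping windows, 1 of them in both. Tle3 had 1 CACGTG and 3 CACNAG matches, Notch2 had 1 CACNAG match, window 1 of Tle4 had 1 CACGTG match, and the Tle1 window and window 2 of Tle4 had none. TGTGGT, a core bound by RUNX proteins, was in 16.8% of all windows and in 0 of these 10. A match is only a run of letters, and no binding was measured here.

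Tle2 had the lowest fitted log2 fold change of the 9 genes. Values below are normalized counts, which are counts divided by a size factor for each library, listed for replicates 1 to 4. Tle2 was at 524.4, 483.2, 467.8 and 634.8 in Mitol KO HSCs and at 1136.8, 1281.1, 1296.2 and 1468.3 in Control HSCs. The highest Mitol KO library stayed well below the lowest Control library. Means were 527.5 ± 75.4 and 1295.6 ± 135.7 (SD, n = 4 each), so that Control HSCs held 2.46 times as much. The fitted log2 fold change of Mitol KO over Control was -1.32, with a standard error of 0.12. Tle2 lies on chromosome 10 of GRCm39 from 81410395 to 81427475, on the plus strand.

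**Figure D1:**
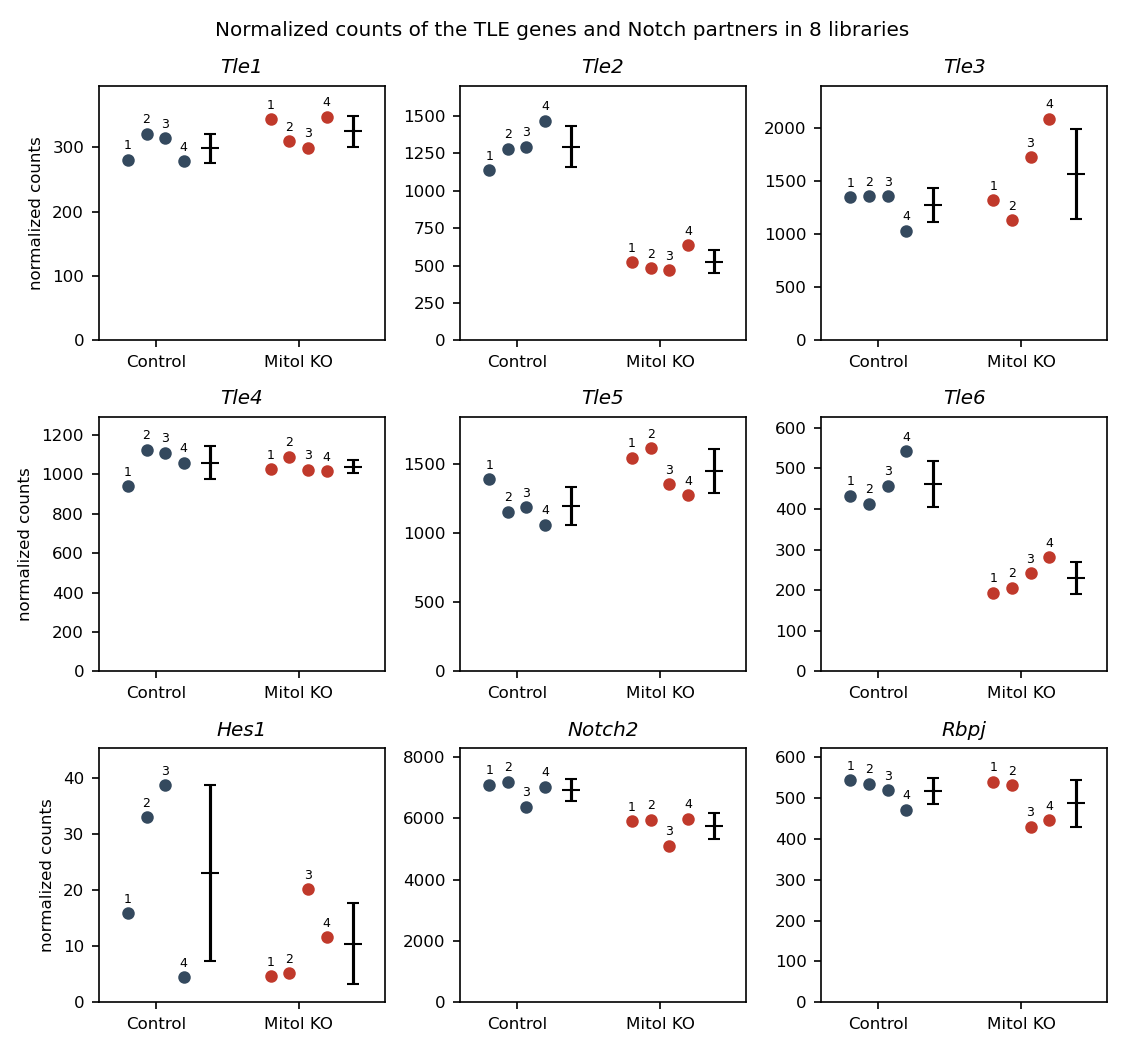
Normalized counts (y axis, linear, from 0) of the 9 genes in each of the 4 Control and 4 Mitol KO libraries (points, numbered by replicate), with the group mean and SD as a bar. The groups do not overlap for Tle2, Tle6 and Notch2 and overlap for the other genes; Hes1 lies under 40 normalized counts in every library.

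The other full-length corepressors were not called. Tle1 was at 343.6, 309.7, 299.3 and 348.1 in Mitol KO HSCs and at 280.9, 321.3, 314.6 and 278.4 in Control HSCs, and the groups overlapped. Its log2 fold change was 0.10 (95% interval -0.15 to 0.35, edgeR adjusted p = 0.609). Tle3 was at 1322.7, 1135.8, 1726.5 and 2090.6 in Mitol KO HSCs and at 1350.4, 1360.9, 1358.3 and 1035.4 in Control HSCs. Mitol KO replicates 3 and 4 lay above every Control library and replicates 1 and 2 did not, and the log2 fold change of 0.28 had an interval of -0.09 to 0.65 (edgeR adjusted p = 0.317). Tle4 was at 1026.9, 1090.0, 1023.4 and 1015.7 in Mitol KO HSCs and at 940.3, 1124.7, 1110.6 and 1058.8 in Control HSCs. All Mitol KO values of Tle4 lay inside the Control range, and its log2 fold change of -0.05 had the interval -0.23 to 0.14 (edgeR adjusted p = 0.778).

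Tle5, the short family member, was at 1548.9, 1617.9, 1356.6 and 1277.0 in Mitol KO HSCs and at 1391.3, 1157.7, 1190.7 and 1061.5 in Control HSCs. Mitol KO replicates 1 and 2 were above every Control library, while replicates 3 and 4 were below Control replicate 1. Means were 1450.1 ± 159.8 and 1200.3 ± 138.7 (SD, n = 4), a log2 fold change of 0.26 (95% interval 0.03 to 0.48). It did not pass the test over all genes (edgeR adjusted p = 0.147), although the interval lies above 0. Tle5 lies just upstream of Tle2 on the same strand, at 81394984 to 81402229 of chromosome 10.

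Tle6 fell in Mitol KO HSCs. Its normalized counts were 194.1, 205.7, 241.7 and 280.4 in Mitol KO and 432.6, 412.9, 456.9 and 541.5 in Control libraries. Every Mitol KO library lay below every Control library. Means were 230.5 ± 38.94 and 460.9 ± 56.64 (SD, n = 4), a log2 fold change of -1.02 (standard error 0.15, edgeR adjusted p = 0.00455, 4 of 4 libraries below every Control library). A 2-sided exact permutation test of the means gave p = 0.0286, the smallest that 4 libraries against 4 allow; this p is not adjusted for the 8 genes so tested and would not stay under 0.05 if it were. The adjusted p stayed between 7.9e-08 and 0.0054 over 7 other normalizations, filters, tools and designs, and between 0.0016 and 0.0188 with any 1 library left out.

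**Figure D2:**
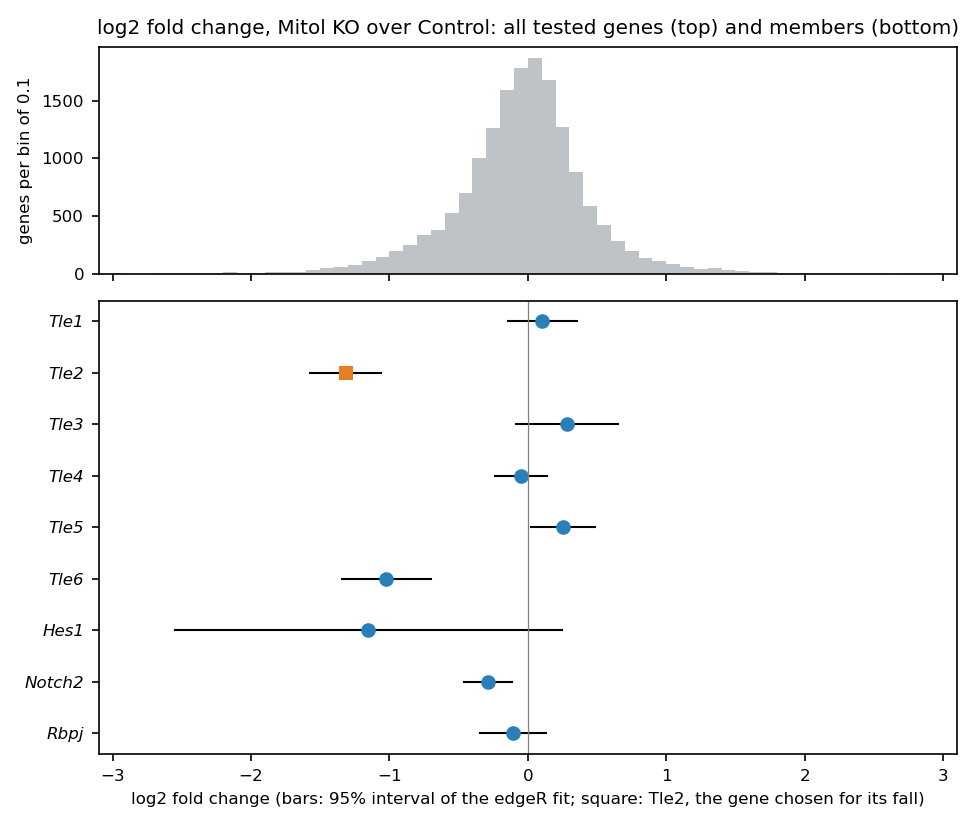
Top, number of the 16444 tested genes in each 0.1-wide bin of log2 fold change, Mitol KO over Control. Bottom, the log2 fold change of each of the 9 genes with the 95% interval of the edgeR fit; the square marks Tle2, at -1.32, and the intervals of Tle6 and Notch2 also lie below 0, whereas that of Hes1 runs from -2.55 to 0.25.

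Tle6 and Tle2 are convergent neighbours that share exonic bases. Tle6 lies on the minus strand of chromosome 10 from 81426738 to 81436907, and its last exon overlaps the last exon of Tle2 by 433 exonic bases, from 81426738 to 81427170. That is 5.8% of the exon bases of Tle2 and 14% of those of Tle6. The strand setting of the counting was not given in the sources used here and the Nextera XT kit does not mark strand, so reads in these bases cannot be assigned to one gene. If Tle2 counts were spread evenly over its exons, the overlap would hold 75.1 normalized counts in Control and 30.6 in Mitol KO HSCs. The difference between these is 44.5, beside a difference of 230.5 for Tle6. The real spread of reads along the exons was not tested. Shorter exonic overlaps with noncoding or unclassified transcripts touch Tle1, Tle2, Tle3, Hes1 and Notch2, over 1.72% to 6.91% of their exon bases.

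Fitted log2 fold changes in the chromosome 10 neighbourhood differed in sign. Within 150 kb of the Tle2 start, a window chosen after the values were seen, 11 genes were tested. Besides Tle2, 3 were called lower (Tle6, S1pr4 and Ankrd24) and 0 higher. Over all 16444 tested genes 3.75% were called lower and 4.68% higher. S1pr4, which encodes a sphingosine 1-phosphate receptor of blood cells, went from 1448.2 ± 97.2 to 1016.9 ± 48.1 normalized counts (log2 fold change -0.53, edgeR adjusted p = 0.00641, and under 0.05 with any 1 library left out). Ankrd24 went from 256.0 ± 68.8 to 157.9 ± 7.8 (log2 fold change -0.72, edgeR adjusted p = 0.0386), and this call was lost without any 1 of Mitol KO replicates 1, 2 and 3 and Control replicates 1, 2 and 4 (up to 0.109). Tle5, between these genes, had a log2 fold change of 0.26, and Sirt6, between Tle6 and Ankrd24, one of 0.06. Both were uncalled. So were Ncln (0.15), Gna15 (-0.35), Gna11 (-0.16), Gm16106 (-0.68) and BC025920 (-0.08).

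**Figure D3:**
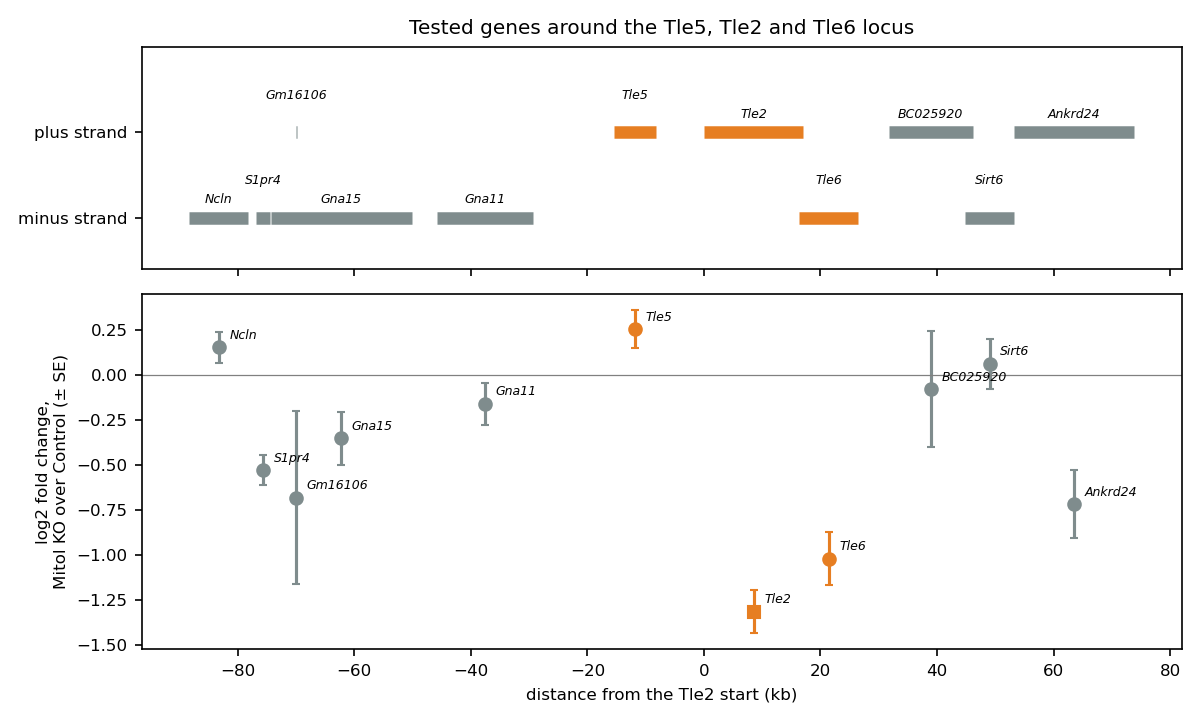
Top, the 11 tested genes around Tle2 by distance from its start (x axis, kb) and strand. Bottom, their log2 fold change, Mitol KO over Control, with the standard error as bars; Tle2, Tle6, Ankrd24 and S1pr4 lie lowest among genes with short bars, and Tle5 lies above 0.

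Levels of different genes were compared per length, as CPM (counts scaled to the library's total on named genes) per kilobase of exons. In Control HSCs the order was Notch2 (66.8 ± 4.5), Tle5 (35.1 ± 3.0), Tle2 (18.9 ± 2.6), Tle6 (16.3 ± 2.5), Tle4 (16.2 ± 1.5), Tle3 (11.4 ± 1.2), Rbpj (4.36 ± 0.16), Tle1 (2.26 ± 0.17) and Hes1 (0.73 ± 0.50). The ranges of Tle2 and Tle6 overlapped there, as did those of Tle6 and Tle4. In Mitol KO HSCs the order was Notch2 (52.6 ± 3.4), Tle5 (40.4 ± 4.4), Tle4 (15.1 ± 0.5), Tle3 (13.4 ± 3.6), Tle6 (7.71 ± 1.30), Tle2 (7.29 ± 1.00), Rbpj (3.91 ± 0.44), Tle1 (2.34 ± 0.16) and Hes1 (0.320 ± 0.224). Here the ranges of Tle4 and Tle3 overlapped, and those of Tle6 and Tle2. Which gene leads depends on the length used, since with the longest transcript in place of all exons Tle5 came first in Mitol KO HSCs, at 70.5 against 56.1 for Notch2.

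Among the 4 full-length corepressors Tle2 held the top level in every Control library and the third of 4 in every Mitol KO library, with either length. Tle2 made up 36.62%, 36.92%, 37.4% and 43.63% of the summed Tle1 to Tle4 level in Control replicates 1 to 4. In Mitol KO replicates 1 to 4 it made up 20.18%, 19.4%, 16.92% and 20.01%. These shares contain the difference that chose Tle2. The summed level of Tle1, Tle3 and Tle4, which does not, was 30.8 ± 3.3 in Mitol KO and 29.9 ± 2.0 in Control HSCs (SD, n = 4), with overlapping ranges of 27.7 to 34.9 and 27.7 to 31.9. With Tle2 included, the sum was 38.1 ± 4.1 against 48.8 ± 3.5. The level of Tle5 relative to the summed Tle1 to Tle4 level was 1.08 ± 0.22 in Mitol KO and 0.725 ± 0.120 in Control HSCs, and the highest Control library, at 0.902, lay above the lowest Mitol KO library, at 0.810. This ratio contains Tle2 as well, and the sum without Tle2 is the one given above.

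**Figure D4:**
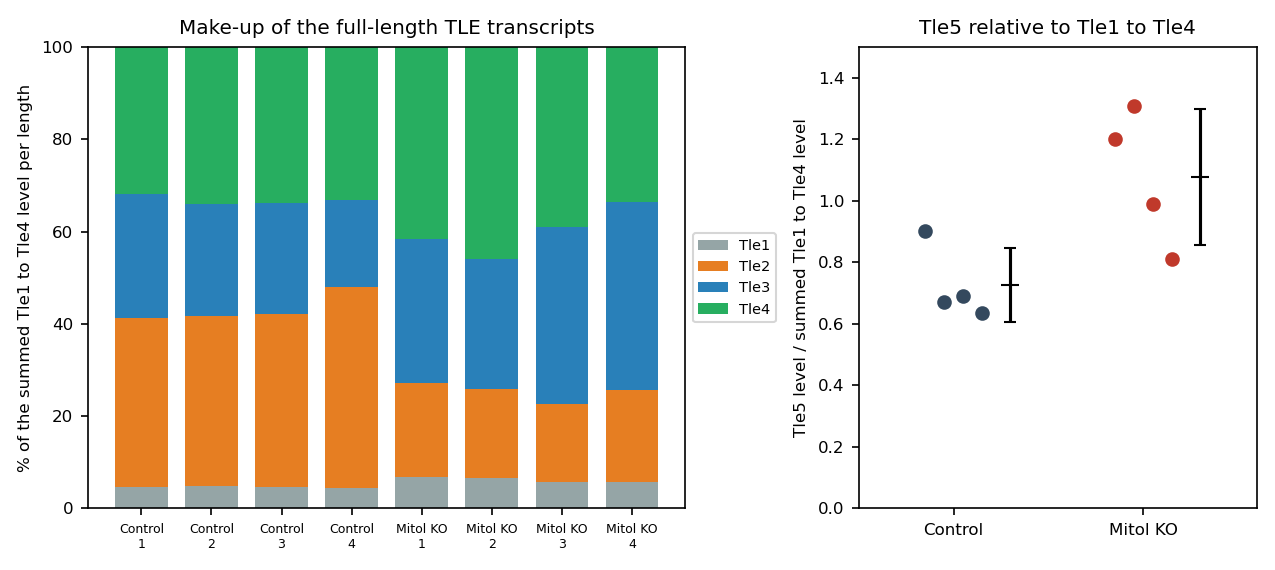
Left, the share of each full-length TLE gene in the summed Tle1 to Tle4 level per length (y axis, %) in each library, with Tle2 in orange at 36.6% to 43.6% in Control and 16.9% to 20.2% in Mitol KO libraries. Right, the ratio of the Tle5 level to that sum in each library, with mean and SD; the groups overlap, and the sum includes Tle2.

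Of the Notch partners, Notch2 fell slightly. Notch2, a receptor gene on chromosome 3 from 97920800 to 98057677, was at 5903.0, 5958.4, 5110.8 and 5984.1 in Mitol KO HSCs and at 7101.7, 7192.0, 6378.1 and 7027.1 in Control HSCs. No Mitol KO library reached the lowest Control library, and means were 5739.0 ± 420.2 and 6924.7 ± 370.6 (SD, n = 4). The log2 fold change was -0.29 (standard error 0.08, edgeR adjusted p = 0.0440, 4 of 4 libraries below every Control library), and the 2-sided exact permutation test again gave its smallest p, 0.0286, with the same limit. The call was close to the threshold. It was lost with the size factors of DESeq2 (edgeR adjusted p = 0.0539) and with no filter on low counts (0.0716), and held in the other 5 of 7 such alternatives. With 1 library left out it held only without Mitol KO replicate 4 (0.0398), and otherwise lay between 0.0541 and 0.143, while the log2 fold change stayed between -0.33 and -0.22.

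Rbpj, the DNA-binding protein of the pathway, was at 539.3, 531.0, 429.3 and 445.4 in Mitol KO HSCs and at 543.3, 534.2, 518.1 and 470.6 in Control HSCs. Mitol KO replicates 3 and 4 were the lowest of all 8 libraries, and the log2 fold change of -0.10 had an interval of -0.34 to 0.13 (edgeR adjusted p = 0.583). Hes1, the classic Notch target and a recruiter of TLE proteins, was hardly detected. Its raw counts were 6, 5, 22 and 11 in Mitol KO and 12, 31, 41 and 5 in Control libraries, or 4.70, 5.20, 20.1 and 11.6 against 15.8, 33.0, 38.6 and 4.49 normalized counts. The lowest value of all belonged to Control replicate 4, and the log2 fold change of -1.15 had an interval of -2.55 to 0.25 (edgeR adjusted p = 0.279).

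Over the 8 genes other than Tle2, 2 fell, Tle6 and Notch2, and 0 rose, at an edgeR adjusted p-value under 0.05. Over all 16444 tested genes 8.43% were called, 3.75% lower and 4.68% higher. The groups did not overlap for the same 2 genes, against 15.4% of all tested genes, 7.18% lower and 8.17% higher in Mitol KO HSCs. The median log2 fold change of the 8 genes was -0.08, beside -0.02 over all tested genes. For the 6 genes that were not called, the 2-sided exact permutation tests gave p-values from 0.0857 to 0.686, unadjusted over the 8 genes tested.

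The wider Notch and TLE pathway was counted by role, from lists written from general knowledge. Without the members, 94 of 110 listed genes are in the table and 87 were tested. Of these 4 rose and 2 fell, 6.9% against the 8.43% of all genes, and their median log2 fold change was 0.02. Among the 4 receptors Notch2 alone was called. Notch1, the best studied receptor in blood, was at 2993.7 ± 261.7 in Mitol KO and 2417.6 ± 203.6 in Control libraries, with a fitted log2 difference of 0.29 (edgeR adjusted p = 0.0690) opposite in sign to that of Notch2. Notch3 (0.29, edgeR adjusted p = 0.590) and Notch4 (-0.44, 0.396) had wider errors and overlapping groups.

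Ligands are made by the cells that signal, and 3 were tested. Jag1 rose, with 345.9, 117.4, 406.4 and 782.9 normalized counts in Mitol KO and 142.4, 120.2, 134.7 and 73.6 in Control libraries (log2 fold change 1.80, standard error 0.43, edgeR adjusted p = 0.0279). Mitol KO replicate 2 lay inside the Control range, and the call was lost without any 1 of Mitol KO replicates 1 and 3 and Control replicates 2, 3 and 4 (edgeR adjusted p up to 0.0839). Jag2 had a log2 fold change of -0.26 and Dll4 one of -0.70 (edgeR adjusted p = 0.269 and 0.328).

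Of 15 genes that glycosylate or cut the receptor, 1 rose, Adam10, the protease that makes the ligand-dependent cut, from 1829.8 ± 123.8 to 2347.5 ± 195.2 normalized counts (log2 fold change 0.34, edgeR adjusted p = 0.0326). Of 12 genes of receptor trafficking and turnover, 1 rose, Fbxw7, which marks the released Notch domain for degradation, from 536.7 ± 18.9 to 689.7 ± 68.3 (log2 fold change 0.34, edgeR adjusted p = 0.0496). Of 9 genes of the RBPJ coactivator complex, 1 fell, Maml2, a Mastermind coactivator, from 918.3 ± 77.5 to 667.7 ± 69.3 (log2 fold change -0.48, edgeR adjusted p = 0.0220). The groups of these 3 genes did not overlap, and leaving out 1 library at a time kept the call in 2, 1 and 3 of 8 fits, with edgeR adjusted p up to 0.0911, 0.140 and 0.0742. Each of these calls was lost without any 1 of Mitol KO replicates 1, 2 and 3 and Control replicates 2 and 3. With all libraries, Fbxw7 was called in 3 of 7 alternatives, Adam10 and Jag1 in 6 and Maml2 in 7.

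Genes that TLE proteins work with showed no call. Of 17 tested genes of the RBPJ corepressor complex 0 were called by edgeR, with a median log2 fold change of 0.09; the corepressor Ctbp1 came nearest (0.30, edgeR adjusted p = 0.0534). Of 14 factors that recruit TLE proteins 0 were called, among them the abundant HSC factors Runx1 (log2 fold change -0.09, edgeR adjusted p = 0.545) and Runx2 (-0.25, 0.0724). Of 7 kinases, ligases and other enzymes acting on TLE proteins 0 were called, with a median of 0.26. Of the HES and HEY repressors only Hes1 and Hes6 passed the filter, and Hes6 was at 208.7 ± 20.6 and 224.0 ± 31.7 (log2 fold change -0.12, edgeR adjusted p = 0.647).

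Of 11 other Notch target genes 1 rose and 1 fell. Cdkn1a, which encodes the cell cycle inhibitor p21 and answers to many signals besides Notch, rose from 93.0 ± 69.2 to 368.6 ± 48.4 normalized counts (log2 fold change 1.99, standard error 0.41, edgeR adjusted p = 0.0170), and kept its call without any 1 library. Gata2, a transcription factor of HSCs, fell from 4676.9 ± 121.5 to 3609.0 ± 476.1 (log2 fold change -0.39, edgeR adjusted p = 0.0287). The Gata2 call held in 1 of 8 fits with a library left out, that without Mitol KO replicate 4, and reached 0.0848 in the others.

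**Figure D5:**
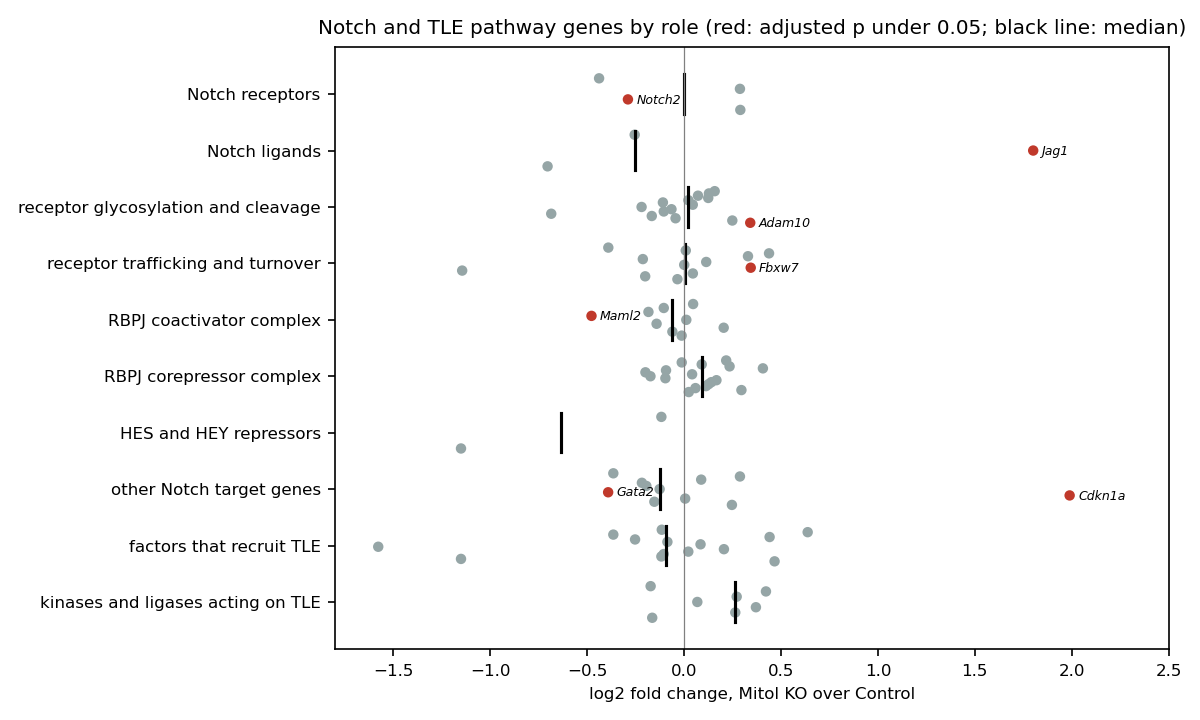
Log2 fold change, Mitol KO over Control (x axis), of each tested gene of the Notch and TLE pathway by role (rows), in red where the edgeR adjusted p was under 0.05, with the median of each role as a black line. Calls are single genes spread over the roles, from Maml2 at -0.48 to Cdkn1a at 1.99; genes with 2 roles appear in both rows, and Hes1 is shown with the repressors and the recruiting factors.

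The genes most like Tle2 over the 8 libraries were listed by Pearson's r of log2 CPM, here scaled as in the edgeR test. They were taken from 12012 tested genes with a mean of at least 50 normalized counts. The highest were Vps39 (0.995), Eya2 (0.994), Nbeal2 (0.992), 1300002E11Rik (0.991) and Iqgap2 (0.990), and the lowest Ldha, which encodes lactate dehydrogenase A (-0.990), Pde12 (-0.986), Plaa (-0.983), Gatm (-0.982) and Esyt1 (-0.981). Tle2 was chosen for its group difference, so r over both groups carries that difference. Of the members, Tle6 ranked 21 with 0.969, Notch2 had 0.894, and Tle5 had -0.800. After subtraction of each group's mean the highest were Dstyk (0.991), Surf1 (0.979), Arfgap1 (0.973), Tsga10 (0.970) and Paox (0.970), and Tle6 ranked 793 with 0.692. Then Tle5 stayed at -0.784 and Notch2 went to 0.338. The points share libraries of 100 cells and their depth, and no test was made.

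The make-up of the libraries moved with the comparison. HSC markers were detected in every library, 10 of 10 in the table, none at 0, but their summed normalized counts were 25395 to 29459 in Mitol KO and 37386 to 44486 in Control libraries. Kit and Hlf fell, and 0 rose. Erythroid markers summed to 1649 to 3729 and 868 to 1320, with Gata1, Hbb-bt and Tfrc higher of 5 tested. Cycling markers summed to 9046 to 19204 and 5584 to 8596, with 9 of 10 higher. Cd48, the marker that the sort excludes, rose from 11.8 ± 7.2 to 39.6 ± 17.4 normalized counts (edgeR adjusted p = 0.0450). Of the 5 megakaryocyte markers tested Pf4 fell. Of 2 neutrophil, 1 B-lineage and 2 T-cell markers tested 0 were called by edgeR. The targeted gene Marchf5, which encodes MITOL, was at 274.5 ± 31.8 and 301.7 ± 29.9 (edgeR adjusted p = 0.498), so whole-gene counts did not mark the deletion. The part of these shifts in the Tle2, Tle6 and Notch2 values was not tested.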

How the data were processed

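The 8 RNA-seq libraries were each made from 100 HSCs. Per the labels and methods, the authors used STAR (reads of 75 bp, build mm39), then SAMtools, then Subread for the counts per gene, and deposited these counts without normalization. The annotation and strand setting of the counting were not given in the sources used here. The smallest row sum is 11, so genes with fewer counts are absent. Rows without a symbol, 1029 with 0.335% to 0.467% of a library's counts, were left out. Counts on named genes ran from 7214935 to 12398138 per library. Counts are of reads, not of molecules.

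Groups came from the sample labels. The test was edgeR (version 4.0.16), quasi-likelihood, with TMM normalization, the default expression filter, group as the sole term and Benjamini-Hochberg adjustment over 16444 genes at 0.05. Normalized counts used the size factors of DESeq2 (version 1.42.0). Levels per length and positions used exons of GENCODE vM39 on GRCm39, with overlapping exons joined. Likeness to Tle2 used log2 CPM with a prior count of 2. These CPM were scaled to TMM-adjusted library totals over the 16444 tested genes. The CPM of the levels per length used plain totals on named genes. Exact permutation tests (2-sided, 70 arrangements of the libraries) were added for single genes. The fits were tested on simulated counts.

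The members and lists were chosen with earlier results of these data known, and neither the members' direction nor their share of calls is independent evidence. Genes named are the members, list and marker genes past the threshold, all tested genes of short lists, the 5 genes most and least like Tle2 and the targeted gene. Neighbours of Tle2 and a few uncalled list genes (Ctbp1, Runx1, Runx2, Hes6) were added after their values were seen. Alternatives were other normalizations, filters, DESeq2, limma-voom (version 3.58.1), the replicate number as a block, another threshold, another length, variance-stabilized values and each library left out.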

Additional observations from a re-analysis of the deposited data

Results flagged for a closer look

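With 4 libraries in a group, a value was listed when its gap to the nearest other library, relative to the group's range, passed the 95% critical value of Dixon's test, which chance gives in about 1 in 20 groups; 66 groups were checked. For Notch2, Mitol KO replicate 3 had 5110.8 normalized counts where the other Mitol KO libraries had 5903.0 to 5984.1, and without it the log2 fold change was -0.22 (edgeR adjusted p = 0.143). For Tle3, Control replicate 4 had 1035.4 where the other Control libraries had 1350.4 to 1360.9. For Tle4, Mitol KO replicate 2 had 1090.0 where the others had 1015.7 to 1026.9. For Gata2, Mitol KO replicate 4 had 4317.7 where the others had 3294.0 to 3432.8. The share of Tle2 in the summed Tle1 to Tle4 level was 43.63% in Control replicate 4 and 36.62% to 37.4% in the other Control libraries. Control replicate 4 thus stood apart in both Tle3 and the Tle2 share, which contains Tle3.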

How the results depend on the processing

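Tle6 kept its call in every one of 15 alternatives, and Tle1, Tle3, Tle4, Tle5 and Rbpj stayed uncalled with their direction in 15 and Hes1 in the 14 it could be tested in. Notch2 lost its call in 9 of 15. The log2 fold change of Tle2 stayed between -1.40 and -1.25. Members called besides Tle2 were 2, and 1 with the size factors of DESeq2 and 1 with no expression filter, Tle6 in each. Leaving out 1 library gave 1 to 2. Over all genes 1386 were called, against 2315 of 16488 by DESeq2 (14%), 2585 at an adjusted p under 0.1 and 359 to 2501 with 1 library left out, fewest without Control replicate 2 and most without Mitol KO replicate 4. It was 565, 492 and 520 without Mitol KO replicates 1, 2 and 3, and 811 and 510 without Control replicates 3 and 4. Of the other pathway genes 6 were called, against 11 by DESeq2, 12 at an adjusted p under 0.1 and 1 to 14 with 1 library left out. It was 1 without Mitol KO replicate 1 or 3 or Control replicate 2 or 3, 2 without Control replicate 4, 3 without Mitol KO replicate 2 and 14 without Mitol KO replicate 4. The cause was not tested. With the length of the longest transcript the Tle2 share was 21.84% in Mitol KO and 42.61% in Control libraries. Variance-stabilized values gave the same 5 genes most like Tle2.

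Replicate numbers are shared by both groups. Deviations from the group means correlated at 0.08, -0.07, 0.05 and 0.07 between same-numbered libraries. Between differently numbered libraries they correlated at -0.126 to 0.097. Each deviation is from a mean of only 4 libraries, so these values cannot decide whether the numbers pair the libraries. With the replicate block, 1652 genes, 2 members besides Tle2 and 7 other pathway genes were called.

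With 100 cells a library, Hes1 rests on 5 to 41 reads, and its interval allows both a large fall and a small rise. Whole-gene counts cannot separate transcripts of a gene or reads shared by Tle2 and Tle6, and 4 libraries a group leave calls near the threshold, such as Notch2, to single libraries.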
